A study of Mus musculus with 2 samples.

Results

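The cornified envelope precursor genes examined here were 10 named genes, Sprr1a, Sprr1b, Sprr2d, Sprr3, Ivl, Lor, Ecm1, Sbsn, Lypd3 and Tgm1, out of 14860 genes with a probe set of their own on the array. Each was taken from probe sets that carry exactly 1 gene symbol in the platform annotation, and all 10 genes had 1 such probe set. The list names a functional group by its genes and sets no threshold on measured values. The samples were cultured tracheal epithelial cells of Gprc5a knockout mice (Gprc5a-/-) and of wild-type mice (Gprc5a+/+), with 1 array for each genotype. Mice of either genotype had a C57 BL/6 × 129sv background and an age of 3 weeks, and neither culture was treated. Cells grew exponentially in the keratinocyte medium K-SFM, to which bovine pituitary extract (50 µg/ml) and the growth factor EGF (5 ng/ml) had been added. The number of mice or cultures behind each RNA is not stated in the labels.

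The cornified envelope is a protein shell that forms under the membrane of stratifying squamous cells. Involucrin lays down a scaffold, loricrin and the small proline-rich (SPRR) proteins fill and bridge it, and transglutaminases crosslink these proteins into an insoluble layer. Most of the precursors are encoded side by side in a gene cluster called the epidermal differentiation complex. Tracheal epithelium does not normally cornify, but airway cells can switch on these genes in culture, after injury or when vitamin A is lacking, and retinoic acid is known to hold such squamous differentiation back. Gprc5a, an orphan G protein-coupled receptor, is itself known as a retinoic acid-induced gene.

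The values are RMA signals on the log2 scale, and differences are given as knockout minus wild type. With 1 array per genotype no test was possible, no value has an error, and every difference describes these 2 samples, with whatever else separates them besides genotype. Gprc5a, the targeted gene, was at 4.05 in the knockout sample and 9.49 in the wild-type sample. Probe sets of 800 olfactory and vomeronasal receptor genes, which are not known as airway epithelial genes, served to show where unexpressed genes lie. Their 95th percentile, 5.05, is called the background level here, and a fold against a value below it is given as a lower bound, with the low value raised to that level. A gene was counted as 2-fold different when its higher value also exceeded 6.76, the median of all probe sets with a gene name. Of the 7943 genes past this level filter, the knockout sample was 2-fold or more higher at 4.62% and 2-fold or more lower at 2.97%. A gene that is dim in 1 sample passes the filter through the other, so a count over those that passed favours genes that differ.

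The envelope genes did not differ as a block. Of the 10 genes, 6 passed the level filter, of which 1 (Sprr2d) was at least 2-fold higher, 2 (Sprr1b and Ecm1) were at least 2-fold lower and 3 lay between. The shares among all filtered genes were the 4.62% higher and 2.97% lower given above. Sprr2d passed by its knockout value only and Sprr1b by its wild-type value only. Without the level filter and with the values as deposited, 1 of the 10 genes was 2-fold higher and 3 were 2-fold lower, against 3.34% and 2.11% of all 14860 genes. The added gene was Ivl, which had a knockout value below the background level and did not reach 2-fold once that value was raised to it. Of the 4 others, Ivl, Lor, Tgm1 and Sbsn, Sbsn stayed just under the filter with a higher value of 6.74. The median difference of all 10 was -0.42, against -0.03 over all genes. In the knockout sample 7 had a lower and 3 a higher value, beside 8023 lower and 6835 higher of all 14860 genes. Sprr3, 1 of the 3, was higher by only 0.0003. In bulk RNA such as this, fewer cells of a type and less RNA per cell cannot be told apart. The highest and the lowest difference belonged to close relatives in the SPRR family, as the plot of the values by genotype shows.

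**Figure D1:**
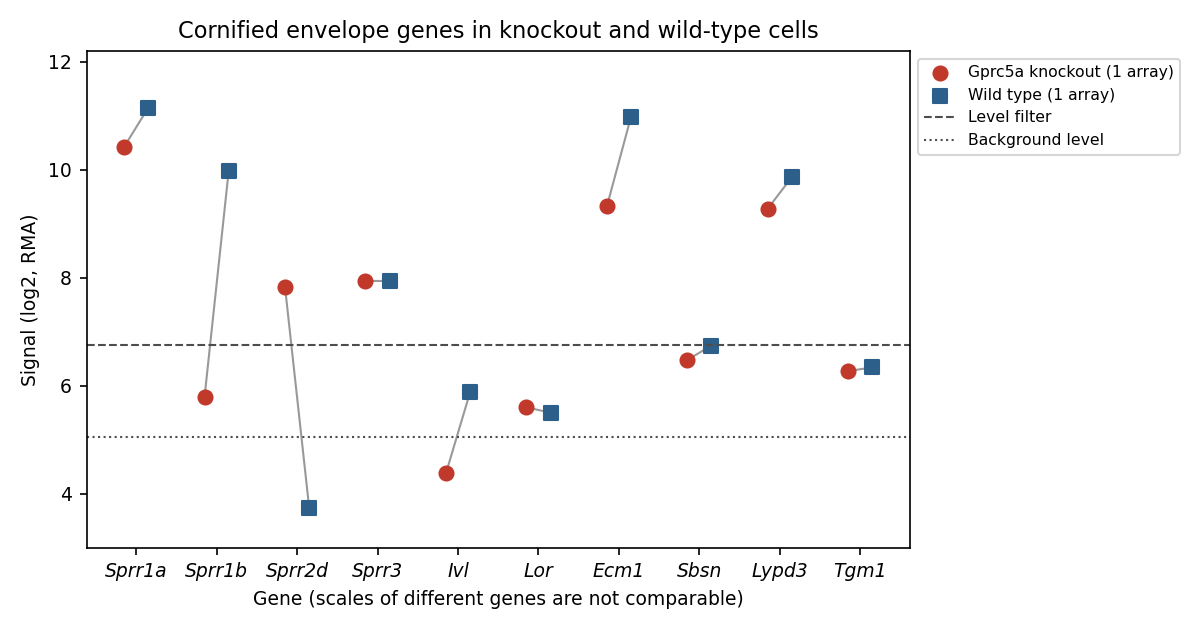
Log2 RMA signal of the 10 cornified envelope genes, with the knockout array as a circle on the left and the wild-type array as a square on the right of each gene, and no error bars because each point is 1 array. Dashed and dotted lines mark the level filter (6.76) and the background level (5.05). Sprr1b and Sprr2d cross the filter in opposite directions, and Sprr3, Tgm1 and Lor have nearly equal values in both samples.

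Because the divergence within the SPRR genes is the main feature of these values, the stretches just upstream of 4 SPRR genes and of Ecm1 are shown. Each is the 250 bases before the transcription start, from the RefSeq promoter table of assembly GRCm38.p6, read 5′ to 3′ on the gene's own strand. Capitals mark TGANTCA and TATAAA, the TATA box letters. TGANTCA, called the AP-1 match below, is looser than the usual AP-1 site TGA(C/G)TCA, since N stands for any base. The match in Sprr1b reads TGAATCA, which the usual site does not include, and those in the other genes shown read TGAGTCA.
Sprr2d, chr3:92338890-92339139, plus strand: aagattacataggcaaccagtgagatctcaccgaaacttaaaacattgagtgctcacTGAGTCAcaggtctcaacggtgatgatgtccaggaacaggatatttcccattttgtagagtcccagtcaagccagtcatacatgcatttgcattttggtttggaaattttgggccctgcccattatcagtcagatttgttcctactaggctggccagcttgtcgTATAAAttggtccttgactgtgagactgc
Sprr2e, chr3:92351893-92352142, plus strand: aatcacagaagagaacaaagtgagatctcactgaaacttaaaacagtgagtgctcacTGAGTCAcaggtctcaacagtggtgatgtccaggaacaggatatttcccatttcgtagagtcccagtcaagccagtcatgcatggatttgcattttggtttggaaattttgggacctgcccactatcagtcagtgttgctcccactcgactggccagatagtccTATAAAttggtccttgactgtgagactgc
Sprr1b, chr3:92438780-92439029, minus strand: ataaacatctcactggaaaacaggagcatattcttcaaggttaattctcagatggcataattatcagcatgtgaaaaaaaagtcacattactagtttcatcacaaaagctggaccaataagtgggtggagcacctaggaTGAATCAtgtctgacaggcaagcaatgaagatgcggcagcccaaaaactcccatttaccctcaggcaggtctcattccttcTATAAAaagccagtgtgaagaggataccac
Sprr1a, chr3:92485882-92486131, minus strand: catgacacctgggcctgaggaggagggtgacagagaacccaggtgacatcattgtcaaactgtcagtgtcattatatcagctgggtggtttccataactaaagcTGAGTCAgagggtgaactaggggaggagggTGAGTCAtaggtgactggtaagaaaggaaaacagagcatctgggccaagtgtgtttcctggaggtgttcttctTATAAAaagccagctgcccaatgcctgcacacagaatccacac
Ecm1, chr3:95739570-95739819, minus strand: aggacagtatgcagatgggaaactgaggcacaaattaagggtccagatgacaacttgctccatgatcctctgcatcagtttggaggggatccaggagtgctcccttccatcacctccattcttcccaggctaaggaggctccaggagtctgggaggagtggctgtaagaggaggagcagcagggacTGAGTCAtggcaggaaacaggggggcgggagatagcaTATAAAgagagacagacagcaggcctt

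These upstream stretches share short elements across genes that differed in opposite directions. All 10 envelope genes were matched by symbol to the promoter table. TGANTCA was found in 7 of the 10 genes, searched on both strands (the letters read the same on each), against 5.94% of the 14927 windows of genes on the array. The 7 were Sprr1a, Sprr1b, Sprr2d, Ivl, Lor, Ecm1 and Sbsn. They include the gene counted as 2-fold higher, those counted as 2-fold lower (Sprr1b only by TGAATCA) and Lor, whose values nearly coincided. Sprr3, Lypd3 and Tgm1 had no match. Tgm1 was searched in 2 windows, and the shares given count single windows, not genes. TATAAA, also searched on both strands, was found in 7 of 10 genes, against 9.99% of those windows. GGAA, the core of ETS factor sites, was present in all 10, but 92.9% of all such windows hold it. By their letters, matches to different motifs cannot overlap. A match describes the letters of the window and does not show that a factor binds there.

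**Figure D2:**
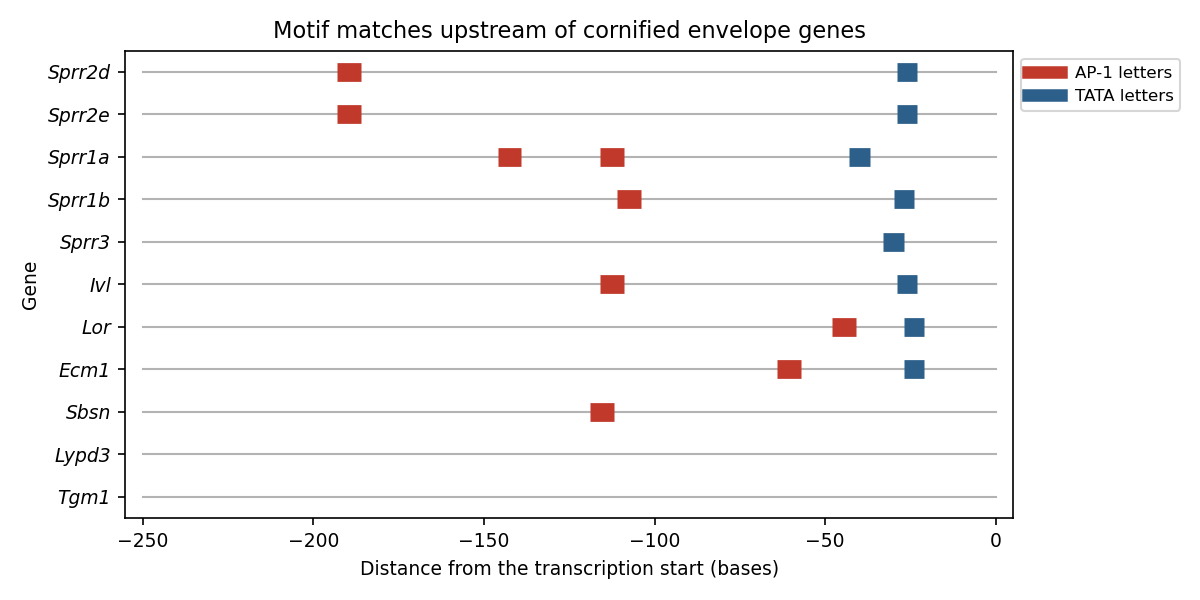
Matches to TGANTCA (red, called AP-1 letters) and TATAAA (blue, TATA box letters) in the 250 bases before the start of the 10 envelope genes and Sprr2e. They are placed by distance in bases from the start. For Tgm1 the first of its windows is drawn. Sprr2d and Sprr2e hold their AP-1 match at the same distance (193 bases), farther from the start than Sprr1b (111 bases). Sprr2i, which is not drawn and was below the background level in both samples, holds it at 193 bases too.

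Upstream of the start, the SPRR2 genes resembled each other more than the SPRR1 genes did. The AP-1 match begins 193 bases before the start in both Sprr2d and Sprr2e, 111 bases before it in Sprr1b and at 146 and 116 bases in Sprr1a. That place is not particular to Sprr2d and Sprr2e. Sprr2i also had its match at 193 bases, and Sprr2b, Sprr2f and Sprr2h had theirs at 195, 197 and 198 bases. These SPRR2 genes were below the background level in both samples. In a global alignment, 89.6% of the 250 bases of Sprr2d were identical in Sprr2e. Over 21 pairs of SPRR2 genes the identity ran from 61.6% to 89.6%. Sprr1a and Sprr1b shared 56.8%, and pairs of an SPRR1 and an SPRR2 gene shared 51.2% to 54.8%. Pairs from the other genes, which included Sprr3, Sprr4, Ivl and Lor, shared 46.0% to 56.4%. By this measure the 2 SPRR1 promoters were hardly more alike than the closest of those pairs, Sprr3 and Ivl. They were less alike than Sprr2h and Sprr3 (57.6%), the closest pair of an SPRR2 gene and 1 of the other genes.

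Sprr1b encodes a small proline-rich protein that transglutaminases join into the envelope, and its human counterpart is a long-used marker of squamous conversion in airway cells. It was at 5.79 in the knockout sample and 9.97 in the wild-type sample, a difference of -4.18 (18.1-fold lower). The knockout value lay above the background level and under the level filter. Only 0.108% of all genes had a more negative difference.

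Sprr1a, the closest paralog of Sprr1b, was at 10.42 in the knockout sample and 11.14 in the wild-type sample. Its difference of -0.72 (1.65-fold lower) had the same sign as that of Sprr1b and did not reach 2-fold. Since SPRR genes are close paralogs, probes may detect more than 1 of them. The values of Sprr1a and Sprr1b were nonetheless far apart in size of difference.

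Sprr2d, an SPRR2 crossbridging protein gene, differed the other way. It was at 7.83 in the knockout sample and 3.75, below the background level, in the wild-type sample. The difference was 4.08, and with the wild-type value raised to the background level Sprr2d was 6.84-fold higher or more in the knockout sample.

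Sprr3, an SPRR protein typical of the oesophagus and other internal stratified epithelia, was at 7.94 in both the knockout and the wild-type sample. Its difference was 0.00 after rounding. With low values raised to the background level, the differences of the 4 SPRR genes ran from -4.18 for Sprr1b to 2.77 for Sprr2d. The central 95% of all genes, with values as deposited, lay between -0.93 and 1.18.

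Ivl encodes involucrin, the scaffold protein on which the envelope is first assembled. It was at 4.38, below the background level, in the knockout sample and at 5.88 in the wild-type sample. Raising the knockout value to the background level made it at least 1.77-fold lower. Both values lay under the level filter, so Ivl does not enter the counts. Lor encodes loricrin, the glycine-rich main protein of the mature epidermal envelope. It was at 5.60 in the knockout sample and 5.50 in the wild-type sample, both a little above the background level, and the difference was 0.10.

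Ecm1 encodes a secreted glycoprotein of skin and other epithelia. It was at 9.32 in the knockout sample and 10.98 in the wild-type sample, a difference of -1.66 (3.16-fold lower). Both values passed the level filter, and Ecm1 was the only one of the 10 genes with a 2-fold difference for which this was so. Ecm1 lies on the same chromosome as the SPRR genes but outside the epidermal differentiation complex.

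Lypd3 encodes a GPI-anchored surface protein of the Ly6 family found on suprabasal keratinocytes. It was at 9.28 in the knockout sample and 9.86 in the wild-type sample, a difference of -0.59 (1.5-fold lower). Sbsn encodes suprabasin, a secreted protein of suprabasal epidermis, and was at 6.48 in the knockout sample and 6.74 in the wild-type sample. Tgm1 encodes the membrane-bound transglutaminase that crosslinks the precursors, and was at 6.27 in the knockout sample and 6.34 in the wild-type sample. The enzyme gene thus differed by -0.07, with both values under the level filter. Its substrate genes Sprr1b and Sprr2d had large and opposite differences.

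**Figure D3:**
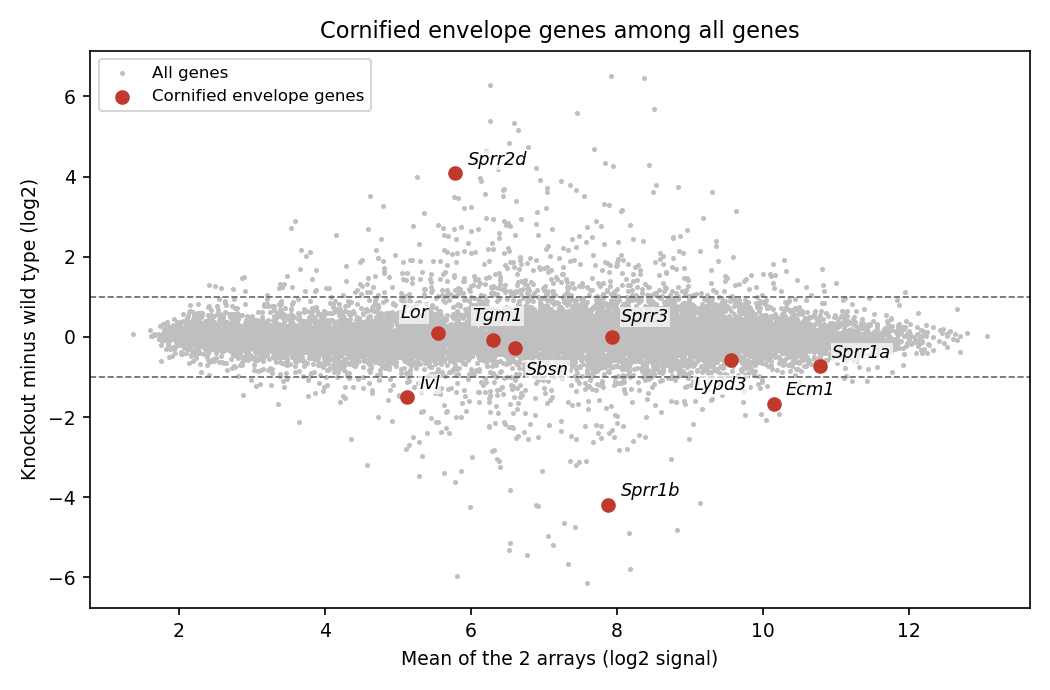
Difference (knockout minus wild type, log2) against the mean log2 signal of the 2 arrays for 14860 genes (grey) and the 10 envelope genes (red), with dashed lines at 2-fold. With values as deposited, Sprr2d at 4.08 (2.77 with its low value raised to the background level) and Sprr1b at -4.18 stand far outside the dense band of genes near 0, while Sprr3, Tgm1, Lor and Sbsn lie within it.

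The remaining SPRR genes on the array were then set beside those 4. Of 9 further SPRR genes, only Sprr2e passed the level filter. Sprr2e, the neighbour of Sprr2d and its nearest match in upstream sequence, was at 7.13 in the knockout sample and 4.43, below the background level, in the wild-type sample. With the low value raised it was at least 4.22-fold higher in knockout cells. Sprr2d and Sprr2e are close paralogs, and probes of each may detect the transcripts of the other, so they may not be separate observations.

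The other SPRR2 genes were dim. Sprr2f was at 4.74 in the knockout sample and 2.73 in the wild-type sample, and Sprr2h was at 3.06 in the knockout sample and 1.77 in the wild-type sample. These values, and both values of Sprr2b, Sprr2g, Sprr2i and Sprr2k, lay below the background level, so no fold is given. A probe set listed for both Sprr2b and Sprr2a1 was at 2.56 in the knockout sample and 3.08 in the wild-type sample. A signal above background in the SPRR2 group was therefore seen for Sprr2d and Sprr2e in the knockout sample and for the pseudogene Sprr2j-ps in the wild-type sample. Sprr2j-ps was at 4.70 in the knockout sample and 5.47 in the wild-type sample. Sprr4 was below the background level in both samples.

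The genes were next placed in chromosome order. Between S100a1 and S100a11 on chromosome 3, the interval of the epidermal differentiation complex, the RefSeq table listed 69 protein-coding genes, and 39 genes of the interval had a probe set of 1 symbol. Among these 39 were 6 of the 10 envelope genes. Of the 12 genes past the level filter, 3 (Sprr2d, Sprr2e and Pglyrp3) were at least 2-fold higher and 2 (Sprr1b and Crct1) at least 2-fold lower in the knockout sample, beside 4.62% and 2.97% of all filtered genes. Of these, Sprr2d and Sprr2e passed the filter by their knockout value only, and Sprr1b and Crct1 by their wild-type value only. Being close paralogs, Sprr2d and Sprr2e may not be separate observations in this count. The SPRR2 genes with the high knockout values lie on 1 side of the SPRR cluster, and Sprr1b, Sprr3, Sprr1a, Sprr4 and Ivl follow in that order on the other side.

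Elsewhere in the complex, the neighbouring peptidoglycan recognition protein genes Pglyrp3 and Pglyrp4 both had a higher knockout value. Pglyrp3, which encodes a bactericidal protein of epithelia, was at 8.43 in the knockout sample and 7.29 in the wild-type sample (2.21-fold higher). Its neighbour Pglyrp4 was at 5.75 in the knockout sample and 3.84, below the background level, in the wild-type sample, and at least 1.62-fold higher. At the far side Crct1, a cysteine-rich late differentiation gene, was at 6.75 in the knockout sample and 7.76 in the wild-type sample (2.02-fold lower). Of 7 late cornified envelope (LCE) genes, 5 were below the background level in both samples. Lce1b was the single one past the level filter, at 7.14 in the knockout sample and 6.74 in the wild-type sample, a difference of 0.40. The median difference over the 39 genes was 0.10, and 0.13 without the envelope genes of the list.

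**Figure D4:**
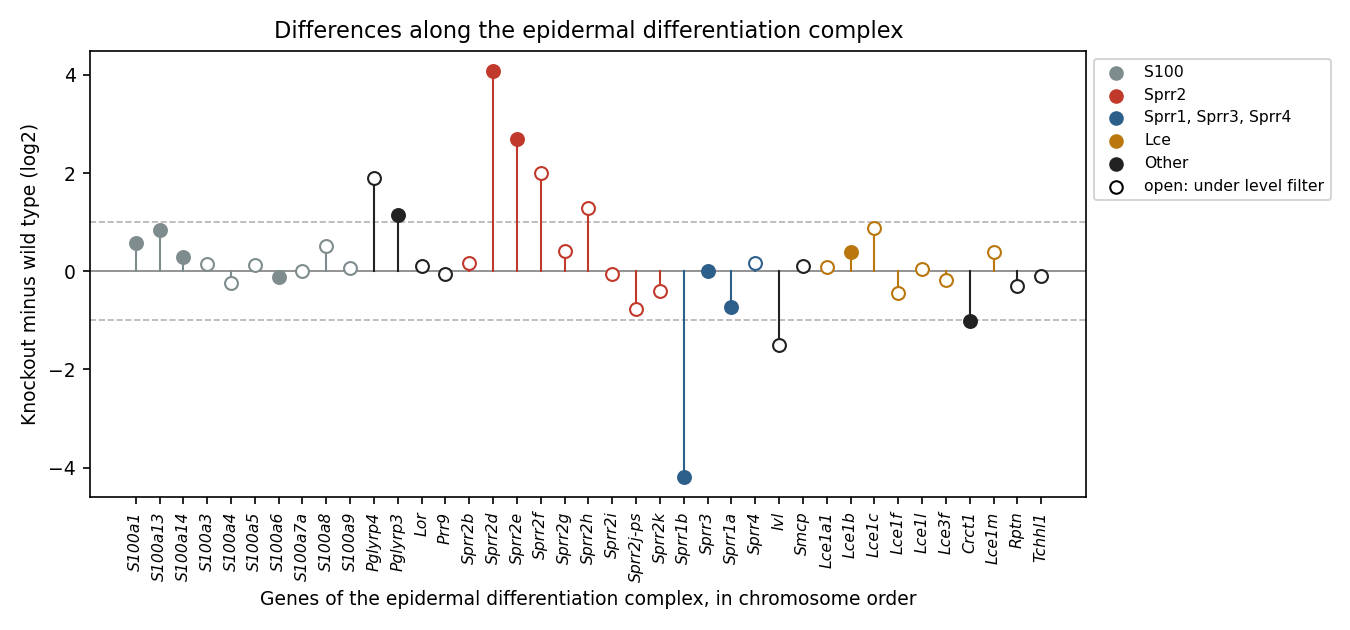
Difference (knockout minus wild type, log2) of 39 genes of the epidermal differentiation complex in chromosome order, coloured by family. Filled points passed the level filter and dashed lines mark 2-fold. Sprr2d and Sprr2e point up and Sprr1b points down within the same gene cluster.

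Most genes of other structural proteins of the envelope and the cornified layer differed by less than 2-fold. Of 17 measured genes, 12 passed the level filter. In the knockout sample none was at least 2-fold higher and 3 were at least 2-fold lower, beside 4.62% and 2.97% of all filtered genes. The list's median difference was -0.07. Dmkn, which encodes the secreted keratinocyte protein dermokine, was at 6.75 in the knockout sample and 9.54 in the wild-type sample (6.91-fold lower). Cdsn encodes corneodesmosin, an adhesive protein of late desmosomes, and was 2.08-fold lower, at 9.22 in the knockout sample and 10.28 in the wild-type sample. Crct1, given above, was the other one. The plakins that anchor the early scaffold were not lower, with differences of 0.82 for Ppl (periplakin) and 0.07 for Evpl (envoplakin). Annexin A1 (Anxa1), another transglutaminase substrate, had a difference of 0.20.

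Among the listed transglutaminases, proteases, deiminases and protease inhibitors, not all of which are known to act on envelope proteins, 11 of 19 measured genes passed the level filter. None was at least 2-fold higher and 4 were at least 2-fold lower, beside 4.62% and 2.97% of all filtered genes. Asprv1, the skin protease that processes profilaggrin, was at 5.97 in the knockout sample and 8.17 in the wild-type sample (4.59-fold lower). Padi4, a peptidylarginine deiminase gene, was at 4.79, below the background level, in the knockout sample and 6.80 in the wild-type sample, and at least 3.35-fold lower. Padi3, another deiminase gene, was 2.03-fold lower, at 8.47 in the knockout sample and 9.49 in the wild-type sample. Tgm5, an epidermal transglutaminase gene, was at 6.51 in the knockout sample and 7.61 in the wild-type sample (2.14-fold lower). The widespread transglutaminase gene Tgm2 had a difference of 0.10, and Prss8, the channel-activating protease prostasin, one of 0.90. The list's median difference was -0.13.

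For envelope lipid enzymes, 6 of 10 measured genes passed the filter. Beside 4.62% higher and 2.97% lower among all filtered genes, none was 2-fold higher and 1 was 2-fold lower. This was Elovl4, an elongase of very long fatty acids, at 8.55 in the knockout sample and 9.85 in the wild-type sample (2.45-fold lower). Abca12, the lipid transporter of keratinocyte lamellar granules, had a difference of -0.61. Of 8 measured squamous keratins, 2 passed the filter and neither reached 2-fold. Krt13, a keratin of internal squamous epithelia, was at 8.17 in the knockout sample and 9.07 in the wild-type sample, and Krt16, a keratin of activated keratinocytes, had a difference of -0.08. Over these 4 lists together, 31 of 54 measured genes passed the level filter. In the knockout sample 0 of these were 2-fold or more higher and 8 were 2-fold or more lower, with 4.62% and 2.97% of all filtered genes in the same classes. The median difference of the 54 genes was -0.11. Dmkn, Crct1, Asprv1, Padi4 and Tgm5 passed the filter by their wild-type value only, which favours a lower knockout value, and Cdsn, Crct1, Padi3 and Tgm5 lay close to the 2-fold threshold. With differences centred on the median of all genes, Crct1 and Padi3 no longer reached it (-0.99 each).

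**Figure D5:**
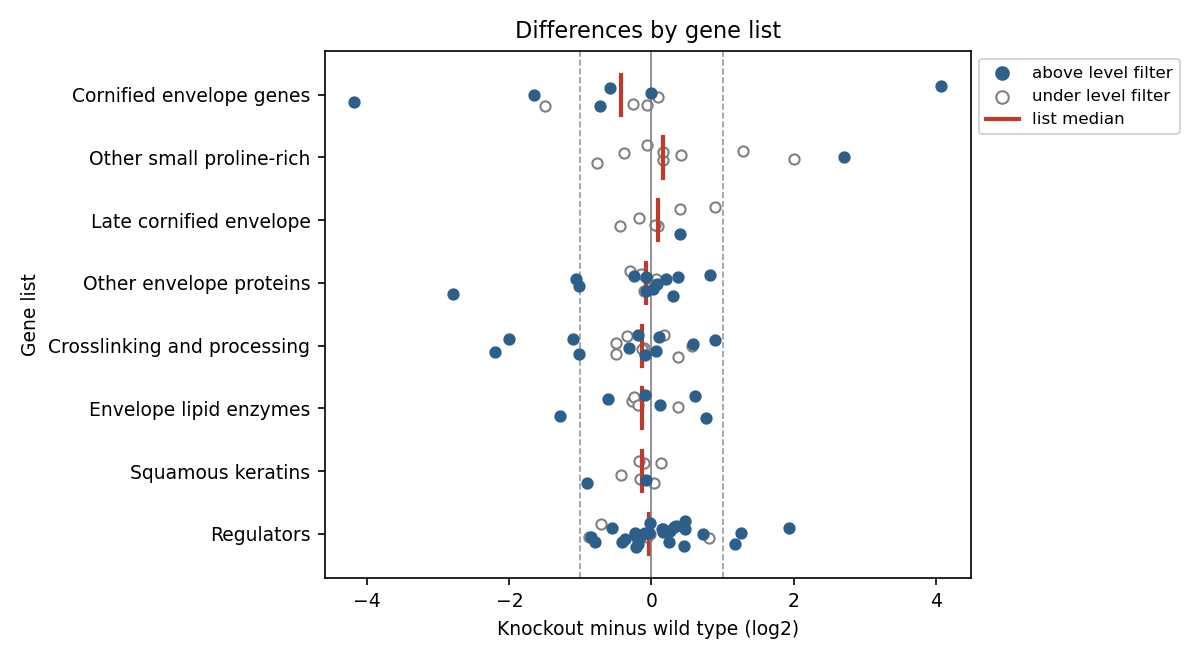
Difference (knockout minus wild type, log2) of each measured gene by list, with points spread vertically for legibility, filled where the gene passed the level filter. Red bars are list medians and dashed lines mark 2-fold. With values as deposited, the widest spread, from -4.18 to 4.08, is that of the 10 cornified envelope genes, and its upper end is 2.77 with the low value raised to the background level.

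Regulators of squamous differentiation were measured at 35 genes, of which 28 passed the level filter. In the knockout sample 3 were at least 2-fold higher and none at least 2-fold lower, beside 4.62% and 2.97% of all filtered genes, and the median difference was -0.03. Zfp750, whose human counterpart drives terminal epidermal differentiation, was at 8.38 in the knockout sample and 6.45 in the wild-type sample (3.81-fold higher), and it passed the filter by its knockout value only. Notch1, a receptor that promotes the exit of keratinocytes from the basal layer, was 2.39-fold higher, at 10.53 in the knockout sample and 9.27 in the wild-type sample. Elf3, an epithelial ETS factor whose human counterpart is known to act on the SPRR2A promoter, was at 8.45 in the knockout sample and 7.28 in the wild-type sample (2.26-fold higher). A related ETS factor gene, Ehf, had a difference of 0.73.

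The other regulators differed by less than 2-fold in either direction. The lowest differences were -0.87 for Prdm1, -0.85 for Ahr, -0.79 for Ovol1 and -0.72 for Grhl1, and the highest were 0.81 for Satb1 and the 0.73 of Ehf. The 6 measured genes of AP-1 subunits differed by -0.42 (Jund) to 0.26 (Fos). Klf4, a zinc finger factor of barrier formation, had a difference of -0.38, and Grhl3, a Grainyhead factor known to act on Tgm1, one of -0.55. Trp63, the p63 gene of stratified epithelia, had one of -0.19. Nfe2l2, which encodes NRF2, had a difference of 0.32.

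Ly6-family relatives of Lypd3 and neighbours of Sbsn were measured at 6 genes, of which 4 passed the level filter. Dmkn was the single one at 2-fold, and 2.97% of all filtered genes were likewise 2-fold or more lower. Plaur, the urokinase receptor of the same protein family as Lypd3, was at 7.05 in the knockout sample and 7.51 in the wild-type sample. Ly6d had a difference of 0.20.

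Genes with the nearest pair of values were found over these 2 samples by the distance between pairs on the log2 scale. For Sprr2d they were Ttpa, Mia2 and Tll1, at distances of 0.42, 0.44 and 0.50. For Sprr1b they were Pdpn, Bmp7 and Ifi27, at distances of 0.64, 0.76 and 0.88. Pdpn, which encodes podoplanin, was at 5.73 in the knockout sample and 10.62 in the wild-type sample. The wild-type values of Sprr2d and of its 3 nearest genes all lay below the background level. Levels of different probe sets are not comparable, so these distances only describe the deposited values.

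Markers of several cell types were read beside the labelled one, tracheal epithelial cells. Of 8 airway basal cell markers, 7 passed the level filter and none reached 2-fold, beside 4.62% higher and 2.97% lower among all filtered genes. Krt5 was at 12.62 in the knockout sample and 12.71 in the wild-type sample. The log2 of their summed signal was 14.62 in the knockout sample and 14.75 in the wild-type sample. Cdh1 (E-cadherin) was at 12.25 in the knockout sample and 12.19 in the wild-type sample. None of 7 fibroblast, 4 endothelial and 4 immune markers passed the level filter, which is not a detection limit. Col1a1, Col1a2, Col3a1, Cd3e and Cd68 lay above the background level in both samples, with Cd68 at 6.67 in the knockout sample and 6.63 in the wild-type sample. The other markers of these 3 types were below it in both. The log2 of the summed fibroblast signal was 7.86 in the knockout sample and 7.98 in the wild-type sample.

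Markers of other epithelial cell types differed beside the envelope genes. Of 4 general epithelial markers, Krt18, a keratin of simple epithelia, was at 11.61 in the knockout sample and 5.15 in the wild-type sample. Krt19 was below the background level in both, and Cdh1 and Epcam differed by less than 2-fold. Of 4 club cell markers, Cyp2f2 was at 9.63 in the knockout sample and 6.48 in the wild-type sample and Cbr2 at 11.42 in the knockout sample and 10.90 in the wild-type sample. The defining secretoglobin genes Scgb1a1 and Scgb3a2 were below the background level in both. The log2 of the summed club cell signal, in which only Cyp2f2 and Cbr2 exceed the background level, was 11.79 in the knockout sample and 10.97 in the wild-type sample. Of 4 ciliated cell markers, Foxj1 was at 8.97 in the knockout sample and 6.22 in the wild-type sample, and Dnah5, Tekt1 and Ccdc39 were below the background level in both. Neither of 2 goblet cell markers passed the level filter, though Spdef lay above the background level in both samples. The summed signal of the ciliated cell markers was 9.09 in the knockout sample and 6.85 in the wild-type sample on the log2 scale. Foxj1 is the only gene in that sum above the background level, so the sum largely restates Foxj1. The part of cell composition in the differences of Sprr1b, Sprr2d and Ecm1 was not tested.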

How the data were processed

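Total RNA (250 ng per sample) was labelled with biotin as sense-strand cDNA and hybridised to whole-transcript arrays, per the labels' protocols. The deposited values are log2 signals, made by the authors with RMA in Affymetrix Expression Console, per the submitters' processing notes, which give no versions. Which arrays were normalized together, which filters were applied and which genome build was used are not stated there. RMA equalises the overall level of arrays and understates large ratios. The sorted columns of the deposited log2 values differed by at most 0.17.

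The table held 23332 probe sets, of which 14996 carried 1 gene symbol. They stood for 14860 genes, and for the 135 genes with several probe sets the one with the highest mean was used. By Entrez ID 14941 matched the RefSeq table of GRCm38.p6, which served for gene order and promoters only. Differences were computed with pandas 2.3.3. A separate 2-fold count without the level filter was tried on simulated data, and the counts given here were not themselves tested that way. Identity is from a global alignment. The number of arrays limits the precision, and no detection calls come with the values.

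The envelope genes and all lists were chosen with earlier results of these data known. Named beside them were, per list, genes at least 2-fold different above the level filter (at most 6, otherwise the 2 brightest), and the 3 genes nearest to the highest and the lowest envelope gene. The other genes named were chosen after their values were seen. Alternatives covered low values, probe set choice, centring, renormalization, the level filter and the fold threshold.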

Additional observations from a re-analysis of the deposited data

How the results depend on the processing

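No paired analysis was possible because each genotype has 1 array, and for the same reason no replicate could be left out. Shifts were judged against 0.43, the SD of the differences of the receptor background genes. Quantile-normalizing again moved none of the 10 envelope genes by more than this. The mean over probe sets could move none, since each has 1 probe set, and centring shifts all by the same small amount. The count of envelope genes at least 2-fold higher was 1, and it became 0 when the higher value had to exceed 8, because Sprr2d reached 7.83. The count at least 2-fold lower was 2, and it became 4 at a 1.5-fold threshold, which added Sprr1a and Lypd3 (on the threshold). Without the level filter it was 3, adding Ivl, a call that is lost when the knockout value of Ivl is raised to the background level. Centring took Crct1 and Padi3 just under 2-fold (-0.99 each). Raising low values to the background level changed the difference of Gprc5a to -4.43, that of Sprr2d to 2.77, that of Ivl to -0.83 and that of Sprr2e to 2.08, since a value below that level was replaced. The median difference of the envelope genes was -0.42, against -0.65 over those past the filter, -0.48 after quantile-normalizing again and a mean of -0.48. Signals near background limit Ivl, Lor and most SPRR2 genes.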
